A study of Mus musculus with 12 samples.

Results

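The 10 genes Sox9, Wt1, Gata4, Amh, Inha, Clu, Cyp11a1, Star, Acta2 and Myh11, which mark the somatic cells of the testis, were examined for H3K36ac, the acetylated form of lysine 36 of histone H3, in chromatin of spermatogonia-enriched cell samples. They were chosen by name as known somatic markers and looked up by symbol in the mouse RefSeq gene table, where all 10 were found among 21468 protein-coding genes of known strand. Sox9, Wt1, Gata4, Amh, Inha and Clu stand for Sertoli cells, Cyp11a1 and Star for Leydig cells, and Acta2 and Myh11 for peritubular myoid cells.

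The samples came from male mice of the 129S1/Sv background at postnatal day (Pnd) 5, with 3 wild-type (WT) mice and 3 Sirt7-/- mice, which carry a deletion of the gene for the deacetylase SIRT7. The replicate numbers 2, 3 and 4 occur in both genotypes, and each sample was a different animal. Each chromatin immunoprecipitation followed by sequencing (ChIP-seq) used 50000 cells, and an input sample was sequenced beside each one. Testis cords were freed from interstitial cells, digested, and plated so that somatic cells would attach and spermatogonia stay in suspension, so the somatic cells that remained were those these steps missed.

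Sertoli cells are the epithelial cells of the seminiferous cords that surround and nourish the germ cells, Leydig cells lie between the cords and make androgens, and peritubular myoid cells wrap the cords in a contractile layer. Histone acetylation at a promoter generally accompanies an active gene, and H3K36ac is known mainly from the starts of transcribed genes. In a bulk sample a peak at a somatic gene may come from any cell type in the tube. Fewer cells of a type and less of the mark per cell cannot be told apart.

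The authors called peaks in each sample separately, and the 6 lists were of very unequal length. The Sirt7-/- lists held 2840, 2045 and 2591 peaks for replicates 2, 3 and 4, and the WT lists held 906, 64 and 294. Every comparison of calls below rests on these lists, in which a gene without a peak is one at which none was called. The lists do not record read depth, and calls were not adjusted for it. The Sirt7 gene itself, at chr11:120618371-120625014 (mm10), had no promoter or gene-body peak in any of the 6 lists, so the lists do not check the deletion.

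A promoter call meant that at least 1 base of a peak lay within 3000 bp of the gene start. By this rule 2 of the 10 somatic genes, Inha and Sox9, were called in at least 1 of the 6 samples, which is 20.0% with an exact Clopper-Pearson 95% interval of 2.52 to 55.6%. Among all protein-coding genes 4238 were called, or 19.7%, so the share of the somatic genes lay close to the background. The other 8 somatic genes, Amh, Wt1, Gata4, Clu, Cyp11a1, Star, Acta2 and Myh11, had no promoter peak in any sample. Of 60 gene-by-sample values, 3 were promoter calls.

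Both called genes had their peaks in Sirt7-/- samples and none in WT, that is 2 of 10 in at least 1 Sirt7-/- sample (19.3% of all protein-coding genes) and 0 of 10 in at least 1 WT sample (5.12% of all). At least 1 Sirt7-/- call with no WT call was found for 14.6% of all protein-coding genes. Inha, 1 of the 10, was called in at least 2 Sirt7-/- samples and no WT sample, beside 6.47% of all. Each Sirt7-/- sample held a promoter peak at 1 of the 10 genes, Inha in replicates 2 and 4 and Sox9 in replicate 3, beside 13.2%, 9.73% and 11.7% of all genes in replicates 2, 3 and 4. Each WT sample held a promoter peak at 0 of the 10, which allows a share of up to 30.8% (exact interval), beside 4.38%, 0.317% and 1.35% of all genes. The counts of 1, 1 and 1 against 0, 0 and 0 did not overlap, and neither did those of all genes.

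**Figure D1:**
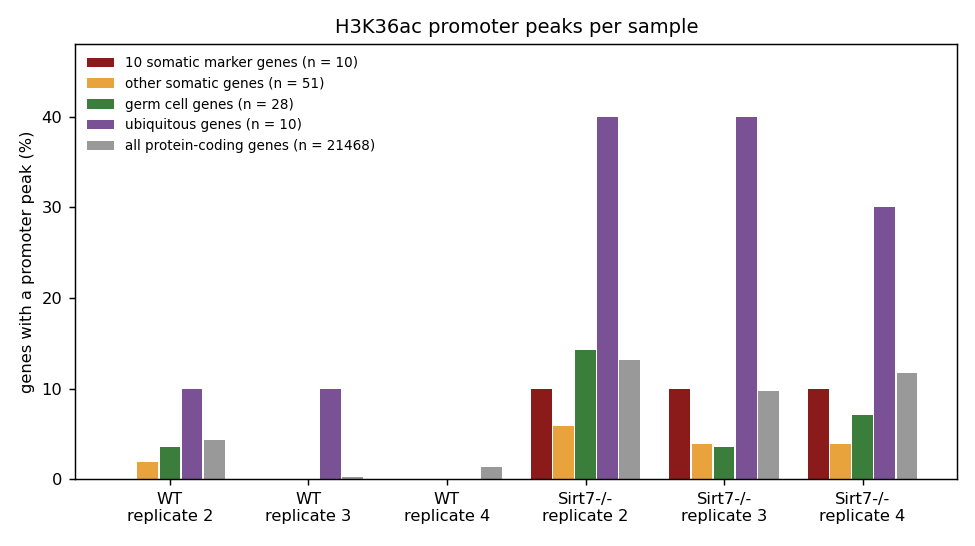
Percentage of genes with a promoter peak (y axis) in each of the 3 WT and 3 Sirt7-/- samples (x axis), for the 10 somatic marker genes, other somatic genes, germ cell genes, ubiquitous genes and all protein-coding genes. Each bar is 1 set of genes in 1 sample, and there are no error bars. The somatic marker genes stood at 1 of 10 in every Sirt7-/- sample and at 0 of 10 in every WT sample, while all protein-coding genes ran from 9.73 to 13.2% in Sirt7-/- and from 0.317 to 4.38% in WT.

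No difference between genotypes passed a test at single genes. Fisher's exact test (two-sided) on 3 against 3 samples cannot give a p below 0.1. This exact test gave p = 0.4 for Inha, with 2 of 3 Sirt7-/- samples against 0 of 3 WT, and p = 1 for Sox9, with 1 of 3 against 0 of 3. After Benjamini-Hochberg adjustment over 21468 genes the exact p was 1 for both. It called 0 genes, with 0 at an unadjusted p under 0.05, while 525 genes (2.45%) sat at the smallest possible p, called in 3 Sirt7-/- samples and in no WT sample. None of the 10 somatic genes was among these 525.

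Sox9 encodes the transcription factor that sets Sertoli cell fate in the male gonad and stays on in these cells. It lies on the plus strand at chr11:112782210-112787757 (mm10), and it was called in Sirt7-/- replicate 3 alone. The peak covered chr11:112781843-112782647, a width of 805 bp, from -367 to 437 bp relative to the gene start. It was the only peak of any somatic marker that lay over the start itself.

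The Sox9 peak stood well up in its list. The authors' fold enrichment over input was 5.32, with a -log10 p of 7.68 and a -log10 q of 3.58, which ranked it 516 of 2045 peaks, in the top 25.2%. It was wider than 81.8% of the peaks at promoters in that list, whose median width was 456.5 bp. In the other samples the nearest peak was far away, at 901 kb in Sirt7-/- replicate 2, 901 kb in replicate 4, and 353, 902 and 2753 kb in WT replicates 2, 3 and 4. No other protein-coding gene starts within 100 kb of Sox9, the nearest being Sstr2 at 837117 bp, so no neighbouring start shared this peak.

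Inha encodes the alpha subunit of inhibin, the Sertoli cell hormone that lowers pituitary follicle-stimulating hormone. The gene lies on the plus strand at chr1:75507077-75510366. It was called in Sirt7-/- replicates 2 and 4 and not in replicate 3 or in WT. In replicate 2 the peak covered chr1:75505440-75505849, 410 bp wide, and in replicate 4 chr1:75505218-75506378, 1161 bp wide. Neither reached the Inha start, from which they ended 1228 and 699 bp away on the upstream side.

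The 2 Inha peaks differed in rank. In replicate 2 the fold enrichment was 3.56, the -log10 p 4.54 and the -log10 q 1.15, at rank 2673 of 2840 peaks, close to the end of the list. In replicate 4 the fold enrichment was 4.27, the -log10 p 6.24 and the -log10 q 2.42, at rank 1208 of 2591. The first was wider than 40.1% and the second wider than 91.2% of the promoter peaks in their lists. The nearest peak elsewhere lay 1115 kb away in Sirt7-/- replicate 3 and 1115, 15837 and 4833 kb away in WT replicates 2, 3 and 4.

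The Inha peaks could not be given to Inha alone. Obsl1, which encodes a cytoskeletal adaptor protein, starts 591 bp from Inha on the other strand and runs away from it. Both peaks lay inside Obsl1, 637 and 108 bp past its start, and their midpoints were nearer to the Obsl1 start than to any other gene start. When each peak was given only to its nearest start, Inha had no call and Sox9 was the only called member.

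The tabulated promoters of Inha and Obsl1 are shown because the peaks lay near the starts of both genes. Both come from RefSeq (GRCm38), each 250 bases up to the tabulated start and written 5′ to 3′ on the strand of its gene, with CpG dinucleotides in capitals. The Inha sequence covers chr1:75507359-75507608 on the plus strand, up to a start 532 bp inside the gene as the gene table draws it. It thus lies inside the gene and not between the Inha and Obsl1 starts. In the GENCODE annotation of the later build, GRCm39, all 5 Inha transcripts start within 62 bp of the outermost start, though the builds were not aligned. The Obsl1 sequence covers chr1:75506453-75506702 on the minus strand.
Inha: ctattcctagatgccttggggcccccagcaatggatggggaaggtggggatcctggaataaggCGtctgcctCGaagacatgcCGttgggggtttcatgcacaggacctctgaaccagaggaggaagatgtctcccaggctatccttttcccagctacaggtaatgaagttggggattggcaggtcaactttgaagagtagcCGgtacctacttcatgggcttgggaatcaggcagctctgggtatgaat
Obsl1: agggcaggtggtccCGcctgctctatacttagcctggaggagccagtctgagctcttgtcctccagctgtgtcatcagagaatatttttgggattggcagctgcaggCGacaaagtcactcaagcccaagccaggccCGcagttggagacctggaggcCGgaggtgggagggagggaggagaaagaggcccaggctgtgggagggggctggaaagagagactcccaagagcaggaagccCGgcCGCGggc
The Inha sequence held 4 CpG and the Obsl1 sequence 7, and neither peak overlapped either sequence.

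**Figure D2:**
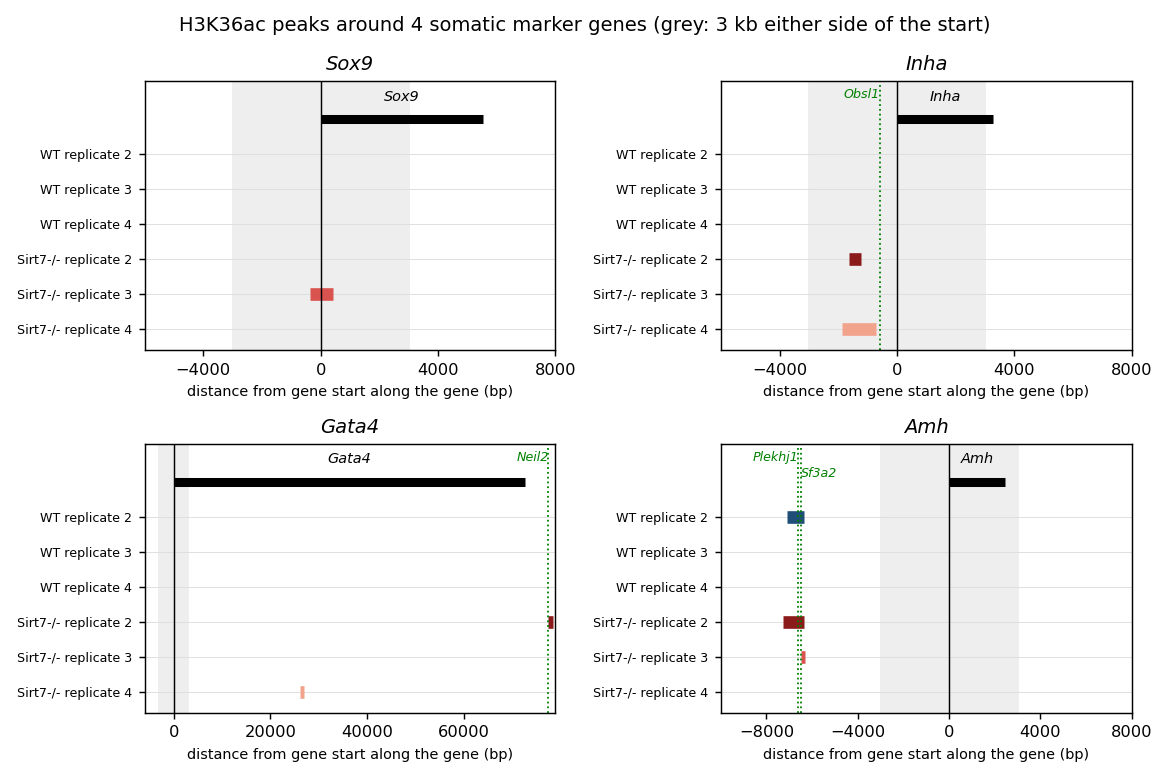
Peaks (coloured bars, 1 row per sample) around Sox9, Inha, Gata4 and Amh, by distance from the gene start along the gene in bp; black bars are the genes, dotted green lines the starts of neighbouring genes, and grey the 3 kb on either side of the start. Sox9 had 1 peak over its start, Inha 2 peaks nearest to the Obsl1 start, Gata4 1 peak inside the gene, and Amh none within 3 kb but 3 at the Plekhj1 and Sf3a2 starts.

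Gata4 encodes a zinc-finger transcription factor of Sertoli and Leydig cells and had no promoter peak, but it was the single member with a gene-body peak. A gene-body call meant overlap with the gene by a peak that did not touch the promoter window, and 548 protein-coding genes (2.55%) had one in any sample. With gene bodies counted beside promoters, 3 of the 10 somatic genes were called in any sample, against 21.8% of all protein-coding genes. Gata4 lies on the minus strand at chr14:63198914-63271712. The peak was called in Sirt7-/- replicate 4 at chr14:63244755-63245650, 896 bp wide and 26062 to 26957 bp inside the gene. Its fold enrichment was 3.75, its -log10 p 5.44 and its -log10 q 1.83, at rank 1855 of 2591.

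The Gata4 peak lay far from the start used here, which is the outermost one of the gene. In the GENCODE annotation of the later build, GRCm39, 7 of 15 Gata4 transcripts, the canonical one included, start 25577 bp inside the outermost start. The builds were not aligned, so the numbers stand side by side only. No other gene start lay within 3 kb of the peak. In the other Sirt7-/- samples the nearest peak was 77.4 kb (replicate 2, at Neil2) and 1623 kb (replicate 3) from Gata4, and in WT it was 511 kb (replicate 2) and 5525 kb (replicate 4), with no peak on chromosome 14 in replicate 3.

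Amh encodes anti-Müllerian hormone, made by immature Sertoli cells and abundant at this age. It lies at chr10:80805240-80807679 on the plus strand and had no promoter or gene-body peak in any sample. A peak lay just outside the window, at 6.36 kb in Sirt7-/- replicate 2, 6.30 kb in replicate 3 and 6.35 kb in WT replicate 2. These were the peaks closest to the 3000 bp limit on the outside, and the Inha peak at 1228 bp was the closest on the inside. In Sirt7-/- replicate 4 the nearest peak lay 49.6 kb away, at the start of Dot1l, and in WT replicates 3 and 4 it lay 43830 and 301 kb away.

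The 3 peaks upstream of Amh sat at the starts of Plekhj1 and Sf3a2, the latter a subunit of the splicing factor SF3A. Both genes were called in the same 3 samples, including WT replicate 2, and their starts lie 6614 and 6505 bp from Amh. The Sf3a2 promoter is shown as a called promoter next to an uncalled marker, in the same form as above. It covers chr10:80798485-80798734 on the plus strand.
Sf3a2: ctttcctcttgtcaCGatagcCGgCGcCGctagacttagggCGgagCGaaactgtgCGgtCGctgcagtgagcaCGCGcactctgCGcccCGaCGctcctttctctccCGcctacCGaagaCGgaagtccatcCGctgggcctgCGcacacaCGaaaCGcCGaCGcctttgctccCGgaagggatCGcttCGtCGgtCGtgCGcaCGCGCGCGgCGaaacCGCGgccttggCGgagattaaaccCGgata
It held 37 CpG.

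Wt1, a zinc-finger transcription factor needed to keep Sertoli cells in their fate, and Clu, which encodes the secreted chaperone clusterin, had no peak in promoter or gene body. Wt1 lies at chr2:105126529-105173614 on the plus strand. The nearest peak to it was 109, 310 and 310 kb away in Sirt7-/- replicates 2, 3 and 4, and 632, 14186 and 632 kb away in WT replicates 2, 3 and 4. Clu lies at chr14:65968483-65981548 on the plus strand. Its nearest peak was 131, 1104 and 130 kb away in Sirt7-/- and 1104 and 7584 kb away in WT replicates 2 and 4, with none on the chromosome in replicate 3. In no sample did a peak lie within 100 kb of the start of either gene. In GENCODE (GRCm39) the canonical Clu transcript starts 15726 bp inside the outermost start, which is more than the 13066 bp of Clu in the gene table, so the annotations draw the gene from different outer starts.

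The Leydig cell genes encode the first steps of steroid synthesis, and neither was called. Star, which moves cholesterol into the mitochondrion, lies at chr8:25808474-25815982 on the plus strand. Cyp11a1, the side-chain cleavage enzyme that turns cholesterol into pregnenolone, lies at chr9:57998024-58027031 on the plus strand. The nearest peak to Star was 310, 32.1 and 206 kb away in Sirt7-/- and 3215, 46327 and 31.9 kb away in WT replicates 2, 3 and 4. The nearest peak to Cyp11a1 was 232, 232 and 57.1 kb away in Sirt7-/- and 232, 4331 and 2848 kb away in WT. At Star the distances of the 2 genotypes overlapped. At Cyp11a1 every Sirt7-/- distance was below every WT one, though by little for WT replicate 2, at 232.5 kb against 232.1 and 232.3 kb in Sirt7-/- replicates 2 and 3. The Sirt7-/- lists were also longer, and the share of all protein-coding genes with such a separation was not counted. In GENCODE (GRCm39) the canonical Cyp11a1 transcript starts 8172 bp inside the outermost start, and 62 of 63 transcripts start over 3 kb inside it, so the promoter window used here may miss the start that most transcripts use. No peak touched the Cyp11a1 gene body in any sample.

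The peritubular myoid genes encode parts of the smooth muscle contractile apparatus, and neither was called. Acta2, smooth muscle actin, lies at chr19:34240336-34255585 on the minus strand, and Myh11, smooth muscle myosin heavy chain, at chr16:14194527-14292188 on the minus strand. The nearest peak to Acta2 was 1499, 63.2 and 623 kb away in Sirt7-/- and 2154 and 7008 kb away in WT replicates 2 and 4, with none on the chromosome in replicate 3. The nearest peak to Myh11 was 58.5, 69.4 and 389 kb away in Sirt7-/- and 2011, 17787 and 5805 kb away in WT. At both genes every Sirt7-/- peak was nearer than every WT peak, in lists that were also longer. The same held at Cyp11a1, Wt1 and Inha. At Inha it held by little, at 1114901 bp in Sirt7-/- replicate 3 against 1114984 bp in WT replicate 2. At Sox9, Amh, Gata4, Clu and Star the distances of the genotypes overlapped. The median distances of all protein-coding genes were likewise apart, at 166.9, 257 and 189.9 kb in Sirt7-/- and 640, 12674 and 2425 kb in WT. The share of all genes with such a separation was not counted.

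The tabulated promoters of Cyp11a1 and Acta2, the only uncalled members with a sequence in the RefSeq table, are shown for comparison with Sf3a2, again as 250 bases with CpG in capitals. They cover chr9:57997774-57998023 on the plus strand and chr19:34255374-34255623 on the minus strand, the latter up to a start 212 bp inside the gene as the gene table draws it. The Cyp11a1 sequence ends at the outermost start, and in GENCODE 1 of 63 transcripts starts within 3 kb of it.
Cyp11a1: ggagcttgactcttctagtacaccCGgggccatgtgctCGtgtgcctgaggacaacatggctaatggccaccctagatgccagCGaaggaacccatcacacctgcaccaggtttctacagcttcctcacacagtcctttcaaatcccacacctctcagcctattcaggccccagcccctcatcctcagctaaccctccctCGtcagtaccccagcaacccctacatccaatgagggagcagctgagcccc
Acta2: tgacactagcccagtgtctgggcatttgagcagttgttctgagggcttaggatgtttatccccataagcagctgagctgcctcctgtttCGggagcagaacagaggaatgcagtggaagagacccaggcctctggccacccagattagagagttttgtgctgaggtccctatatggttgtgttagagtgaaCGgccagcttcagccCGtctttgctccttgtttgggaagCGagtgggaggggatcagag
Each held 4 CpG, against the 37 of Sf3a2. The sequences of the called genes Inha and Obsl1, shown above, held 4 and 7.

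Distances to the nearest peak placed the 10 genes near the middle of all protein-coding genes in Sirt7-/-. Their median distance was 120, 151 and 168 kb in replicates 2, 3 and 4, beside 166.9, 257 and 189.9 kb for all protein-coding genes. In WT replicates 2 and 4 it was 868 and 3840 kb, beside 640 and 2425 kb. In WT replicate 3 it was 30809 kb, beside 12674 kb, but only 7 of the 10 members had a peak on their chromosome. The number of members farther away than the median gene was 4, 4 and 5 of 10 in Sirt7-/- and 5, 8 and 7 in WT, where a chromosome without a peak counted as farther.

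**Figure D3:**
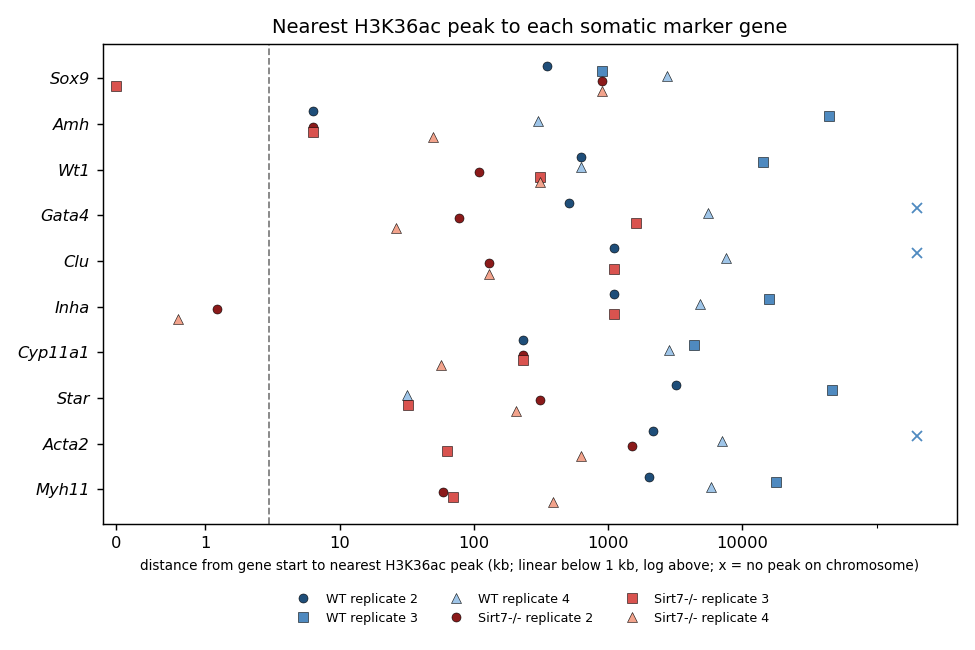
Distance in kb from the start of each of the 10 genes to the nearest peak in each of the 6 samples, on an axis that is linear below 1 kb and logarithmic above; the dashed line is the 3 kb promoter window and a cross stands for no peak on the chromosome. Only Sox9 in Sirt7-/- replicate 3 and Inha in Sirt7-/- replicates 2 and 4 fell inside the window, and the Amh points at 6.30 to 6.36 kb were the next nearest.

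CpG content went with promoter calls across all genes. Of 17492 protein-coding promoters in the table, 1.88% of those with 0 to 4 CpG in 300 bases were called in any sample, 9.95% of those with 5 to 13, 25.8% of those with 14 to 24, and 43.6% of those with 25 to 65. In WT the shares were 0.392%, 1.98%, 5.96% and 12.9%. Inha held 5 CpG in its 300 bases, Acta2 6 and Cyp11a1 7, so the 3 members with a sequence fell in the second group, as did Obsl1 with 8, while Sf3a2 with 41 fell in the highest. The CpG observed over expected was 0.222 for Inha, 0.270 for Acta2, 0.307 for Cyp11a1, 0.288 for Obsl1 and 1.29 for Sf3a2. The Inha bases lie wholly inside the gene as the gene table draws it. The Cyp11a1 bases lie at the outermost start, and in GENCODE (GRCm39) 62 of 63 transcripts start over 3 kb inside it. The counts thus describe the tabulated sequences and may not describe the promoters in use. With 3 of 10 members in the table, under the 80% required here, a comparison of the members with genes of like CpG content was void.

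**Figure D4:**
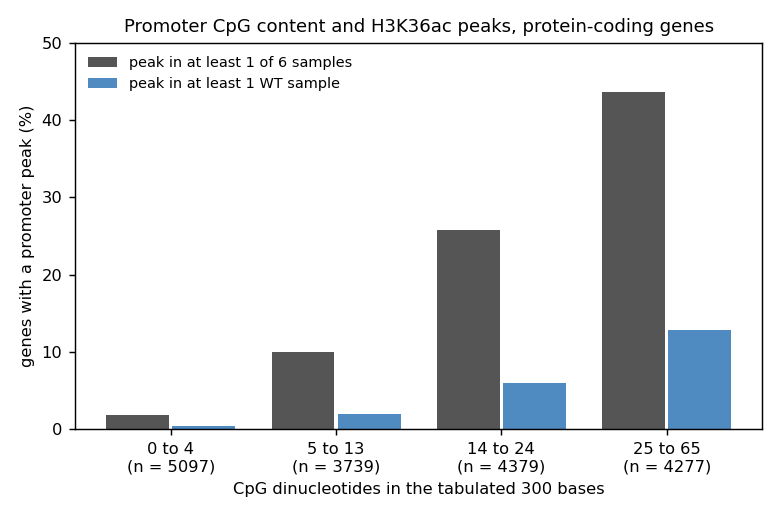
Percentage of 17492 protein-coding promoters with a peak in any sample and in any WT sample (y axis), by the number of CpG in 300 bases (x axis). The share in any sample went from 1.88% at 0 to 4 CpG to 43.6% at 25 to 65 CpG. The tabulated sequences of 3 somatic markers fell in the group of 5 to 13 CpG, at 9.95%. Of these, the Inha sequence lies inside the gene, and the Cyp11a1 sequence lies at a start that may not be the one most transcripts use.

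The 5 motifs below were searched on both strands of the 300 bases, and the matches are descriptions of the letters only. The CArG box was searched only in its strict form CCWWWWWWGG, where W is A or T, so boxes that deviate from it were not counted. CCAAT occurred in 39.2% of all promoters, GATAA in 23.0%, TATAAA in 13.3%, AAGGTCA in 4.06% and the CArG box in 1.56%. Inha held a CCAAT on the opposite strand, Cyp11a1 a CCAAT on its own strand, and Acta2 a GATAA on the opposite strand. Acta2 also held ccctatatgg and ccttgtttgg, which each differ by 1 base from the strict CArG form and were not counted. Obsl1 held a CCAAT on the opposite strand and Sf3a2 held none of the motifs. No promoter shown held more than 1 exact match, so no exact matches overlapped.

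Lists of other genes were counted in the same way, with values set side by side and no test between lists. Of 14 other Sertoli cell genes 4 were called in any sample (28.6%, exact interval 8.39 to 58.1%). Dmrt1, a transcription factor that germ cells also use, was called in 2 Sirt7-/- samples and 1 WT sample, and Gdnf, the growth factor that maintains spermatogonial stem cells, and Dhh, a hedgehog ligand, in 1 Sirt7-/- sample each. Of 9 other Leydig cell genes 2 were called (22.2%), namely Scarb1, a lipoprotein receptor, and Nr5a1, a nuclear receptor of steroidogenic cells, in 1 Sirt7-/- sample each. None was called of 8 other peritubular genes, 8 interstitial stroma genes, 6 endothelial genes or 6 macrophage genes, which allows a share of up to 36.9% for 8 genes and 45.9% for 6. Over these somatic lists 6 of 51 genes were called (11.8%, 4.44 to 23.9%).

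The germ cell lists gave shares that overlapped those of the somatic genes. Of 18 genes of undifferentiated spermatogonia 5 were called (27.8%, 9.69 to 53.5%). Foxo1, a transcription factor of these cells, was called in 2 Sirt7-/- samples, Etv5, another, in 1 Sirt7-/- sample, and Taf4b, a subunit of the general transcription factor TFIID, in 1 WT sample only. Of 10 general germ cell genes 2 were called (20.0%), Uchl1, a deubiquitinase, and Dazl, an RNA-binding protein, in 1 Sirt7-/- sample each. Together 7 of 28 germ cell genes were called (25%, 10.7 to 44.9%), an interval that holds the 20.0% of the 10 somatic markers.

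Genes that every cell uses were called most often among the lists. Of 10 such genes 6 were called (60.0%, 26.2 to 87.8%). Ppia, a prolyl isomerase, was called in 3 Sirt7-/- and 0 WT samples, and Hprt, an enzyme of purine salvage, in 2 Sirt7-/- samples. In WT replicates 2, 3 and 4 the list had 1, 1 and 0 genes called, so most ubiquitous genes also had no peak in the WT lists.

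**Figure D5:**
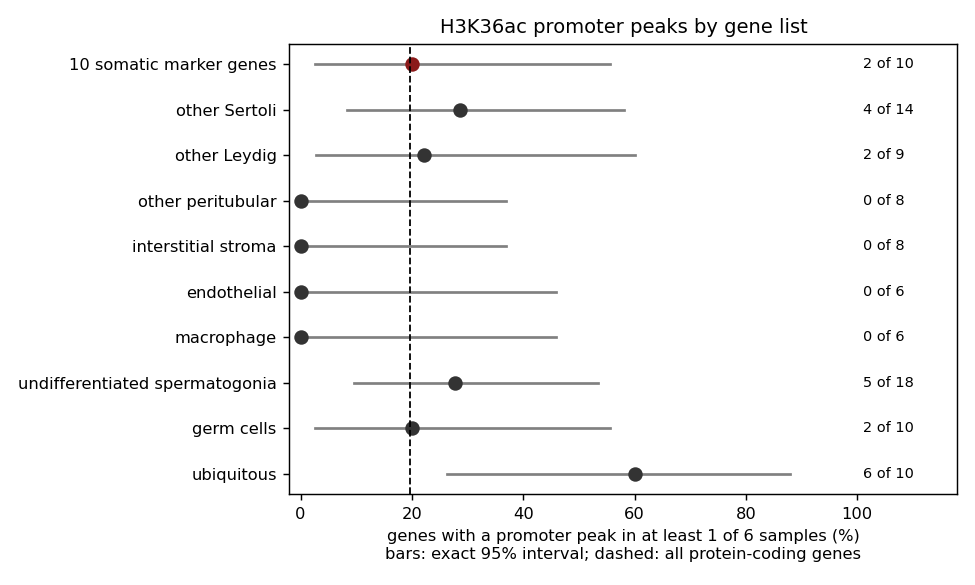
Percentage of each gene list with a promoter peak in at least 1 of 6 samples (points) with exact Clopper-Pearson 95% intervals (bars); the dashed line is the 19.7% of all protein-coding genes. The 10 somatic markers stood at 20.0%, with an interval of 2.52 to 55.6% that overlaps those of the germ cell and ubiquitous lists.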

How the data were processed

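H3K36ac ChIP-seq peak lists of 3 WT and 3 Sirt7-/- samples were used. Inputs had no list of their own. Per the study's methods, the authors mapped reads by Bowtie2 2.4.4.1 (mm10) after trimming in Trim Galore 0.6.6, kept mapping quality of at least 30 by SAMtools 1.19.2, removed duplicates with Sambamba, and called broad peaks with MACS2 2.2.5 (broad cutoff 0.1) per sample against its own input, without pooling replicates and with no spike-in factor. The deposited lists give, per peak, its position, a score, the fold enrichment ratio over input, and the -log10 p-value and -log10 q-value as the caller wrote them. They hold no counts or depth, and a peak's absence also depends on depth and background. The study states a read total for each sample, which was not used here.

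Peak starts were converted to 1-based positions. Gene starts came from the RefSeq table of GRCm38 (mm10), with 1 start per gene. Strand came from the RefSeq promoter table for 17492 protein-coding genes and from GENCODE, by symbol and chromosome, for 3976, giving 21468 of 21900 (98.0%). Where both gave a strand, 99.4% of genes had the same one. A promoter call needed 1 base of a peak within 3000 bp of the start. Peaks were ranked within each list by -log10 q. Samples were grouped by the labels' genotype, and genotypes were compared per gene with Fisher's exact test and Benjamini-Hochberg adjustment over all protein-coding genes. Exact intervals cover the number of genes only, and p-values the spread between these animals. Peak assignment recovered 100% of 878 simulated peaks. These were placed by the same rules and each set against 1 gene only, so this checked the code and not assignment among neighbouring genes.

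The members and lists were chosen with earlier results of these data known. All 10 members are named, and of each other list up to 3 called genes, those called in most samples and then with the best rank, except 1 gene of the ubiquitous list that is not reported here. Alternatives varied the window, assignment rule, q-value, width, list size and samples. Calls were made in pandas 2.3.3 under Python 3.11.15, tests in SciPy 1.17.1 and statsmodels 0.14.6, and plots in matplotlib 3.10.9.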

Additional observations from a re-analysis of the deposited data

How the results depend on the processing

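The counts were small and followed the settings. The mean number of members with a promoter peak per sample was 1 higher in Sirt7-/- than in WT. It was 0.667 with peaks of -log10 q of at least 2, with peaks of at least 500 bp and with a 1000 bp window, 0.333 with -log10 q of at least 3 and with each peak given to its nearest start only, and 0 when every list was cut to its best 64 peaks, or every list but that of WT replicate 3, which holds 64, to its best 294. The number of members called in any sample (2) and the number of promoter calls (3) both became 1 with -log10 q of at least 3 or nearest start only, and 0 at 64 or 294 peaks. The gene-body count (1) became 0 at -log10 q of at least 2 or 3 and at both list lengths. With the replicate number as a block the mean difference within numbers was also 1. With each number present once in both genotypes this equals the unblocked difference, so the setting could not change it. The labels tie the numbers to no shared litter or day.

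Leaving out 1 sample at a time gave 1 to 2 members called (1 without Sirt7-/- replicate 3), 2 to 3 promoter calls, 0 to 1 members called in every remaining Sirt7-/- sample and no WT sample (1, Inha, without Sirt7-/- replicate 3), 0 to 1 gene-body calls (0 without Sirt7-/- replicate 4) and a difference of 1 to 1. A 5000 bp window, peak midpoints, either gene end as start, and, chosen after seeing the data, all tabulated RefSeq starts left the promoter counts as they were. The gene-body count stayed at 1 with peak midpoints and with nearest start only, and was not computed for the other 3 of these settings. No direction was reversed, but with no member called in WT, settings that only remove peaks or samples could not reverse one. The alternative matched on CpG was not run because that check was void. With lists of 64 to 2840 peaks, a member without a peak is one at which none was called in that list.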

Other observations

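Within 100 kb of the 10 somatic markers lay the starts of 37 other protein-coding genes, of which 11 (29.7%, against 19.7% of all protein-coding genes) had a promoter peak in any sample and 2, Plekhj1 and Sf3a2 beside Amh, had one in WT (5.12% of all). Dot1l, which encodes the H3K79 methyltransferase and starts 50139 bp from Amh, was the only one of the 37 called in 3 Sirt7-/- samples and in no WT sample, as 2.45% of all were.

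The call pattern of Sox9, Sirt7-/- replicate 3 only, was shared by 364 other protein-coding genes (1.70%), and those nearest to it in peak rank were Ugdh, Smim27 and Topors. The pattern of Inha, Sirt7-/- replicates 2 and 4 only, was shared by 415 (1.93%), and those nearest in mean rank were Obsl1, which has the same peaks, Alg9 and Zfpm2.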
